A study of Mus musculus with 16 samples.

Results

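The genes described here are the protein-coding mouse genes named Zfp and a number, zinc finger protein genes, whose mean level over 16 RNA libraries was at least 5 CPM (the counts of a gene over the total of its library, scaled to a total of 1e6). They were chosen by that level alone, and 151 of the 334 protein-coding genes with such a name reached it. The other 183 lay below it, 4 of them with no count in any library. Zfp809, Zfp799 and Zfp61 were just inside the limit, with means of 5.09, 5.20 and 5.25 CPM, and Zfp3, Zfp131 and Zfp90 were just outside it, with 4.98, 4.93 and 4.91 CPM. Because the level chose the genes, levels are described with no test.

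The study transfected cultured engineered mouse juxtaglomerular (JG) cells, which carry a YFP reporter driven by the renin promoter, either with the microRNA miR-106b or with a non-mammalian control microRNA precursor, and collected them 48 h later. PolyA RNA came from 4 control and 4 miR-106b cultures. RNA bound to the Argonaute protein Ago2, the core of the silencing complex RISC, came by immunoprecipitation (Ago2-IP) from another 4 control and 4 miR-106b cultures grown in parallel, so no library pair shares a culture. The labels give no strain, clone or passage of the cells, and the series holds no mock-transfected group and no precipitation without the Ago2 antibody. Total counts were 5692958 to 9459585 in the control polyA libraries, 2815272 to 4554848 in miR-106b polyA RNA, 3501909 to 4616424 in control Ago2-IP RNA and 2579086 to 3450269 in miR-106b Ago2-IP RNA. A count of 3, used as the floor, corresponds to 0.317 CPM in the deepest library and 1.16 CPM in the shallowest, for counting error only. The median gene of the 151 had 121 to 226 counts in the control polyA libraries and 43 to 52 in the miR-106b Ago2-IP libraries, and no gene was at 0 in any library.

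Most proteins of this name carry C2H2 zinc fingers, each of which holds a zinc ion between cysteines and histidines and contacts a few bases of DNA, so that an array of fingers reads a longer site. Many also carry a KRAB box, which recruits the corepressor TRIM28 and through it histone and DNA methylation to silence retroelements and imprinted loci. The name does not mark a single family: it also covers RNA-binding proteins with fingers of other types, ribosome factors and proteins of the spindle.

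The cell label was checked against marker genes first. Renin (Ren1), the defining product of JG cells, had no count in any of the 16 libraries, and Akr1b7, a marker of renin-lineage cells, reached at most 0.574 CPM. The other 8 genes of the list of 10 JG and mural cell markers were detected, with Des the most abundant, at a summed level of 2746, 2566, 2522 and 2795 CPM in control polyA RNA and 3552, 4334, 3547 and 4456 CPM in miR-106b polyA RNA. The same list had 4940 to 5462 CPM over the 8 Ago2-IP libraries. Its members did not move together. Des had 926 to 1305 CPM in control polyA RNA, 1796 to 3078 in miR-106b polyA RNA and 3948 to 4442 in Ago2-IP. In the same order Acta2 had 641 to 844, 444 to 819 and 240 to 265 CPM, and Tagln 475 to 537, 265 to 449 and 76.0 to 97.6 CPM. In Ago2-IP against polyA RNA of control these 2 were lower and 6 of the 8 genes tested were higher.

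Markers of cardiac muscle were abundant and differed between the groups. All 10 were detected, led by the heavy chain Myh6, and their sum was 19663, 15286, 16429 and 21710.0 CPM in control polyA RNA and 29689, 51519.7, 37321 and 49866 CPM in miR-106b polyA RNA. It was 73199, 73845, 71703 and 69069.9 CPM in control Ago2-IP RNA and 69251, 67074, 71713 and 73752 CPM in miR-106b Ago2-IP RNA. Every miR-106b polyA library thus lay above all control polyA libraries and below all Ago2-IP libraries. The 6 endothelial markers, led by Cdh5, were all detected and showed the same order, with 286, 225, 243 and 328 CPM in control polyA RNA, 415, 768, 563 and 719.6 CPM in miR-106b polyA RNA and 961 to 1042 CPM in Ago2-IP. The 6 leukocyte markers, led by Csf1r and all detected, summed to 82.0, 58.5, 67.3 and 85.4 CPM in control polyA RNA, 123, 197, 151 and 194 CPM in miR-106b polyA RNA and 263 to 298 CPM in Ago2-IP. The 5 red cell markers, led by Hbb-bs and all detected, summed to 42.4, 28.5, 37.0 and 43.6 CPM in control polyA RNA, 65.0, 113, 77.2 and 108 CPM in miR-106b polyA RNA and 125 to 157 CPM in Ago2-IP. The sum of the kidney tubule list went another way, through Cdh16 alone. All 5 had a count in some library, but Umod, Slc34a1, Aqp2 and Slc12a3 had at most 1.16 CPM in any library. The list summed to 129, 138, 143 and 250.5 CPM in control polyA RNA and 166, 114, 174 and 203 CPM in miR-106b polyA RNA. In Ago2-IP it had 1.68 to 12.2 CPM. The cardiac, endothelial, leukocyte and red cell lists therefore moved with every comparison of miR-106b with control polyA libraries and of Ago2-IP with polyA libraries, and their part in those results was not tested. In bulk RNA, fewer cells of a type and less RNA per cell cannot be told apart.

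Together the 151 genes held a small share of the RNA. Their summed level was 5586 ± 42.9 CPM (SD, n = 4) in control polyA RNA, 5565 ± 405 in miR-106b polyA RNA, 4758 ± 31.2 in control Ago2-IP RNA and 4727 ± 44.3 in miR-106b Ago2-IP RNA. The 4 miR-106b polyA libraries spread from 5123 to 6075 CPM, on both sides of the control polyA libraries, while the Ago2-IP libraries of both transfections lay close together and below all polyA libraries.

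**Figure D1:**
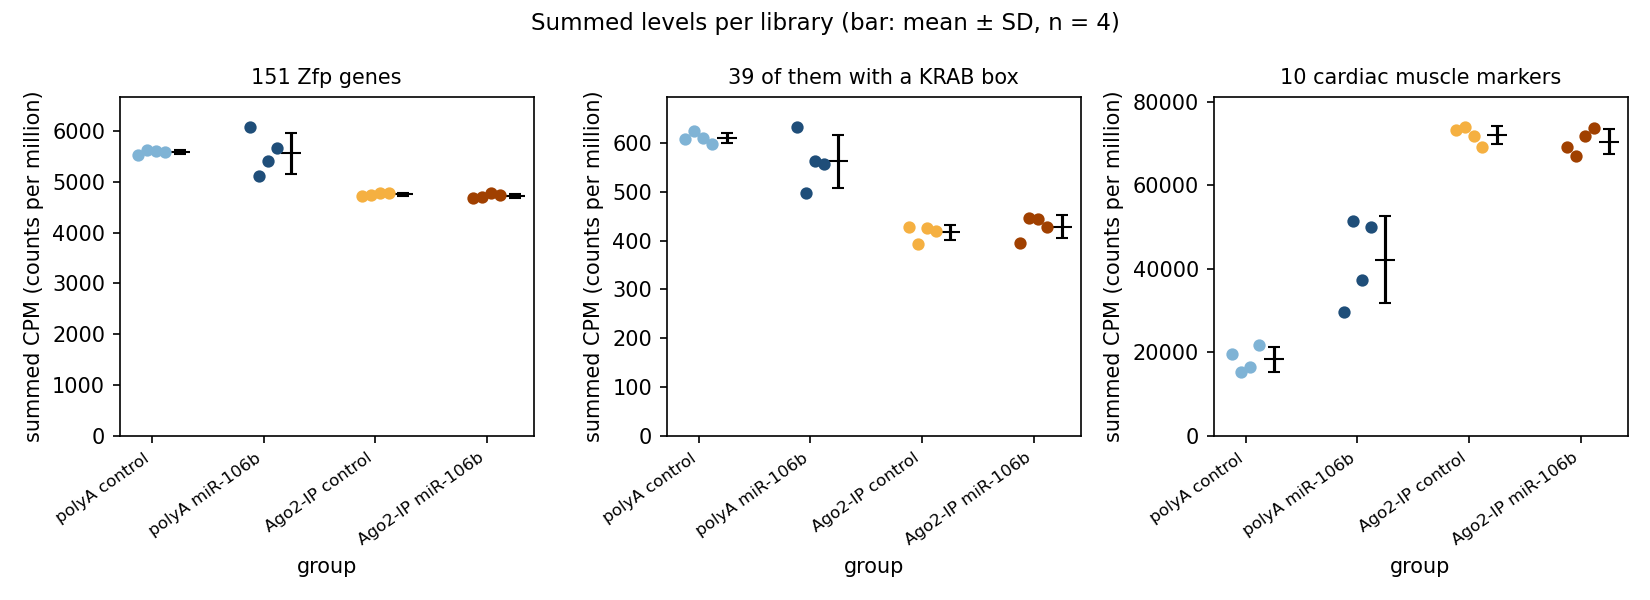
Summed CPM (vertical axes, from 0) of the 151 Zfp genes, of the 39 with a KRAB box and of 10 cardiac muscle markers in the 16 libraries, by group. Points are libraries and bars are means with SD; the 4 miR-106b polyA libraries range from 5123 to 6075 CPM for the Zfp genes and from 29689 to 51520 CPM for the cardiac markers.

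Per kilobase of exon, the scale on which genes can be compared, mean levels over all 16 libraries, polyA and Ago2-IP RNA together, ran from 0.462 CPM per kb for Zfp638 to 39.8 for Zfp651, with Zfp106 next at 37.2. Zfp651 is the mouse counterpart of a BTB domain zinc finger factor, and Zfp106 is an RNA-binding protein needed to maintain motor neurons and muscle. The next genes were Zfp703 at 32.1 CPM per kb, Zfp358 at 31.8 and Zfp768 at 28.5, followed by Zfp598 at 26.7, Zfp362 at 26.5 and Zfp503 at 26.4. Zfp703 and Zfp503 are paralogous corepressors of the NET family with a single atypical finger, and Zfp598 is the ubiquitin ligase that senses collided ribosomes. None of these 8 genes has a KRAB box. The order differed between the kinds of RNA: in control polyA RNA alone Zfp503 was highest per kilobase, followed by Zfp703 and Zfp598, and in control Ago2-IP RNA Zfp651 was, followed by Zfp106 and Zfp768.

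Protein features were read from the coding sequences, since they played no part in the choice. A KRAB box was found in 39 of the 151 proteins (25.83%), against 121 of 182 (66.48%) of the Zfp genes under 5 CPM with a coding sequence. The median number of C2H2 fingers was 9 for the 151 and 12 for the genes under 5 CPM, and the longest array was the 40 fingers of Zfp142. Fingers numbered at least 10 in 60 of the 151. The 6 proteins without a match to the finger pattern were Zfp36, whose fingers are of the CCCH type, Zfp365, Zfp503, Zfp703, Zfp330 and Zfp839. The 39 genes with a KRAB box summed to 611 ± 10.96 CPM (SD, n = 4) in control polyA RNA, 563 ± 54.7 in miR-106b polyA RNA, 417 ± 15.8 in control Ago2-IP RNA and 429 ± 23.4 in miR-106b Ago2-IP RNA. The wider of the 2 KRAB patterns was added after seeing the data (22 of the 39 match the narrow one), and a pattern misses degenerate boxes, as in Zfp445, a known KRAB protein without a match.

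The first comparison asks which transcripts of polyA RNA differ 48 h after miR-106b transfection. In the edgeR test 21 of the 151 genes rose (13.9%) and 26 fell (17.2%), where 19.0% of the 14897 genes tested rose and 21.5% fell. The differences between these shares were not tested. The median log2 change was -0.07 for the 151 and -0.05 for all genes tested, with 68 genes above 0 and 83 below. Groups did not overlap for 16 of the genes that rose (10.6%; 15.5% of all tested) and 21 of those that fell (13.9%; 18.8% of all tested). All 151 genes passed the filter on low counts. The split moved with the setting: 26 rose and 19 fell with the size factors of DESeq2, and 32 rose and 16 fell when all 16 libraries were scaled and fitted together, which changes the dispersion as well as the scaling and moved the median of all genes tested from -0.05 to 0.07. Of all genes tested 3163 rose and 2642 fell in the former setting and 3829 and 2408 in the latter. Values per library are normalized CPM, CPM corrected by TMM scaling among the 8 polyA or the 8 Ago2-IP libraries, and log2 changes carry their SE with 4 libraries in each group.

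The genes of mesenchymal and developmental roles held the largest rise. Zfp423 (ENSMUSG00000045333, chr8:87661809-87959595 on GRCm38, as for all positions), which commits precursors to the fat lineage, had 5.70, 3.15, 4.20 and 3.85 normalized CPM in the control polyA libraries and 8.06, 13.9, 7.18 and 10.8 in miR-106b polyA RNA. The 2 groups did not overlap, and the log2 change was 1.24 ± 0.27 (adjusted p = 0.00317). Zfp536, a repressor of neuronal differentiation, had 8.23, 6.09, 6.15 and 7.87 in control and 8.51, 12.6, 10.8 and 19.7 with miR-106b. The groups were apart by a narrow margin, its highest library was miR-106b polyA replicate 4, the change was 0.84 ± 0.25 (adjusted p = 0.0179), and without that library the adjusted p was 0.0627. Zfp467, a promoter of fat over bone formation, had 20.6, 20.3, 22.6 and 26.9 in control and 46.6, 24.6, 28.7 and 44.9 with miR-106b, which overlap, and rose by 0.68 ± 0.20 (adjusted p = 0.0161). Zfp462, a regulator of chromatin in early development, had 93.3, 89.6, 98.2 and 78.6 in control and 70.6, 51.1, 70.1 and 41.5 with miR-106b, which do not overlap, and fell by 0.62 ± 0.16 on the log2 scale (adjusted p = 0.00831). In all, 3 of the 7 genes of this list rose and 1 fell, where 19.0% of all genes tested rose and 21.5% fell. For the others, the log2 change was 0.33 ± 0.14 for Zfp521, the paralog of Zfp423 (adjusted p = 0.0826), -0.21 ± 0.10 for Zfp703 (adjusted p = 0.108) and 0.09 ± 0.35 for Zfp503 (adjusted p = 0.857).

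Zfp503 varied widely among its miR-106b replicates. It had 178, 200.002, 206 and 206 normalized CPM in control polyA RNA and 387, 97.4, 147 and 209 in miR-106b polyA RNA, with replicates 1 and 4 of the latter above and replicates 2 and 3 below all controls.

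Zfp366 (ENSMUSG00000050919, chr13:99184822-99247037), a nuclear receptor corepressor known from dendritic cells, rose from 7.91, 7.03, 6.30 and 8.92 normalized CPM in control polyA RNA to 11.4, 19.5, 19.9 and 18.9 in miR-106b polyA RNA. Replicate 1 was the lowest of the miR-106b libraries yet above every control, and the change was 1.20 ± 0.21 (adjusted p = 0.00102). Zfp641, a KRAB protein, had 3.16, 1.57, 2.1 and 2.80 in control and 3.58, 7.49, 4.14 and 4.82 with miR-106b. Its level was low, its lowest miR-106b library exceeded its highest control by little, and its change of 1.07 ± 0.33 (adjusted p = 0.0209) had an adjusted p of 0.0575 without control polyA replicate 2 and 0.0910 without miR-106b polyA replicate 2. Zfp651 (ENSMUSG00000013419, chr9:121760032-121771742), the gene highest per kilobase over all 16 libraries though not in polyA RNA alone, had 139, 142, 141 and 169 in control and 259, 279, 222 and 319 with miR-106b, and Zfp532, a partner of Zfp592 and Zfp687 in a chromatin complex, had 22.3, 20.7, 21.3 and 24.1 in control and 37.4, 46.3, 31.5 and 39.0 with miR-106b. Neither gene's groups overlapped. The log2 change was 0.87 ± 0.13 for Zfp651 (adjusted p = 0.000683) and 0.80 ± 0.14 for Zfp532 (adjusted p = 0.000926).

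Genes that act on RNA and ribosomes went both ways. Zfp36, tristetraprolin, which binds AU-rich elements and speeds the decay of cytokine mRNAs, had 39.4, 33.5, 34.6 and 44.6 normalized CPM in control polyA RNA and 67.6, 59.4, 55.2 and 67.5 in miR-106b polyA RNA, a rise of 0.72 ± 0.13 on the log2 scale (adjusted p = 0.00107). Zfp106 had 227, 205, 204 and 223 in control and 256, 403, 296 and 407 with miR-106b, a rise of 0.66 ± 0.15 (adjusted p = 0.00383). In both genes the groups did not overlap, and for Zfp106 replicates 2 and 4, the libraries highest in cardiac markers, were the highest. Zfp385a, an RNA-binding p53 target that is not among the 151 because of the letter in its name, rose by 0.38 ± 0.11 (adjusted p = 0.0122). Zfp598 fell from 145, 149.5, 129.9 and 130.0 normalized CPM to 106, 106, 107 and 95.0, by 0.42 ± 0.10 on the log2 scale (adjusted p = 0.00591). Of the 10 genes of this list, 8 of them among the 151, 3 rose and 1 fell, where 19.0% of all genes tested rose and 21.5% fell. The log2 change was -0.44 ± 0.17 for Zfp326, which couples transcription and splicing (adjusted p = 0.0571), -0.50 ± 0.20 for Zfp638 (adjusted p = 0.0672) and -0.15 ± 0.13 for the ribosome assembly factor Zfp622 (adjusted p = 0.383). It was 0.15 ± 0.16 for Zfp346, which binds double-stranded RNA (adjusted p = 0.487), 0.25 ± 0.22 for Zfp830 (adjusted p = 0.39) and -0.39 ± 0.50 for Zfp593 at a mean of 1.42 CPM (adjusted p = 0.57).

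All 4 genes of the cell cycle list fell, where 21.5% of all genes tested did. Like the other lists, it was chosen with earlier results of these data known, so its count is a description. Zfp365 (ENSMUSG00000037855, chr10:67886102-67912662), a centrosomal protein with a role in DNA repair, had 39.5, 42.6, 36.4 and 30.6 normalized CPM in control polyA RNA and 15.7, 12.8, 20.2 and 8.90 in miR-106b polyA RNA. It was the largest fall of the 151, 1.36 ± 0.20 on the log2 scale (adjusted p = 0.000683), with no overlap of the groups. Zfp207, which loads the checkpoint protein Bub3 onto kinetochores, went from 135, 134, 129 and 126 to 81.8, 70.9, 98.8 and 77.5 and fell by 0.67 ± 0.12 (adjusted p = 0.00094). Zfp367, a cell cycle transcription factor, had 20.6, 23.9, 23.7 and 15.7 in control and 9.41, 10.97, 15.5 and 12.6 with miR-106b. Its lowest control, replicate 4, exceeded its highest miR-106b library by little, and it fell by 0.81 ± 0.19 (adjusted p = 0.00568). Zfp655, a Vav-interacting regulator of the G1 phase, had 17.1, 15.2, 14.4 and 15.9 in control and 9.86, 9.90, 12.97 and 5.56 with miR-106b, a fall of 0.68 ± 0.21 (adjusted p = 0.0188). That call was lost without any of control polyA replicates 1, 2 and 3, with adjusted p values of 0.102, 0.0813 and 0.0680. The median change over the list was -0.75.

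Further large falls came from genes outside the lists. Zfp871, a KRAB protein, had 14.6, 14.1, 15.0 and 12.9 normalized CPM in control polyA RNA and 6.94, 5.62, 6.62 and 2.23 in miR-106b polyA RNA, and Zfp7 (ENSMUSG00000033669, chr15:76879258-76892392), also with a KRAB box, had 18.03, 20.7, 17.8 and 18.9 in control and 7.84, 8.56, 11.04 and 6.31 with miR-106b. In both the groups were apart by more than their spread. The log2 change was -1.35 ± 0.24 for Zfp871 (adjusted p = 0.00118) and -1.15 ± 0.18 for Zfp7 (adjusted p = 0.000683). Zfp618 (ENSMUSG00000028358, chr4:62965572-63139708), a partner of the methylcytosine reader UHRF2, had 94.6, 98.5, 108 and 89.6 in control and 54.7, 51.9, 67.1 and 39.3 with miR-106b. Zfp692 had 37.5, 36.0, 35.2 and 33.4 in control and 17.5, 24.4, 22.1 and 18.5 with miR-106b. Again no library of one group reached the other, and the log2 change was -0.87 ± 0.14 for Zfp618 (adjusted p = 0.000798) and -0.78 ± 0.14 for Zfp692 (adjusted p = 0.000948).

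Of the 7 imprinting and retroelement genes 5 were tested, of which 2 fell and none rose, where 21.5% of all genes tested fell and 19.0% rose. Zfp57, which keeps methylation at imprinted loci, had 22.5, 28.1, 21.9 and 26.2 normalized CPM in control polyA RNA and 11.9, 13.4, 26.8 and 10.8 in miR-106b polyA RNA, and replicate 3 of the latter lay within the controls. Its fall was 0.65 ± 0.24 on the log2 scale (adjusted p = 0.0482). Zfp445, which shares that role, fell by 0.63 ± 0.23 (adjusted p = 0.0407) from 22.8, 18.2, 13.3 and 15.6 to 7.84, 10.7, 15.5 and 11.5, with groups that overlapped. The log2 change was 0.00 ± 0.16 for Zfp568, a repressor of a placental Igf2 promoter (adjusted p = 0.993), and 0.18 ± 0.24 for the provirus silencer Zfp809 (adjusted p = 0.579). Zfp932, at a mean of 0.858 CPM, had a change of -0.37 ± 0.66 (adjusted p = 0.684), and Zfp42 and Zfp708 were not tested. Among 6 GC-box binding and broad regulators 1 fell, near the 21.5% of all genes, and none rose, against 19.0%. It was Zfp335, a subunit of H3K4 methyltransferase complexes, which fell by 0.35 ± 0.10 (adjusted p = 0.0144). For the rest of them the log2 change was -0.42 ± 0.18 for Zfp148 (adjusted p = 0.0845), -0.18 ± 0.15 for Zfp281 (adjusted p = 0.346) and -0.23 ± 0.11 for Zfp217 (adjusted p = 0.101). It was 0.20 ± 0.10 for Zfp219 (adjusted p = 0.149) and 0.10 ± 0.11 for Zfp91 (adjusted p = 0.505).

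**Figure D2:**
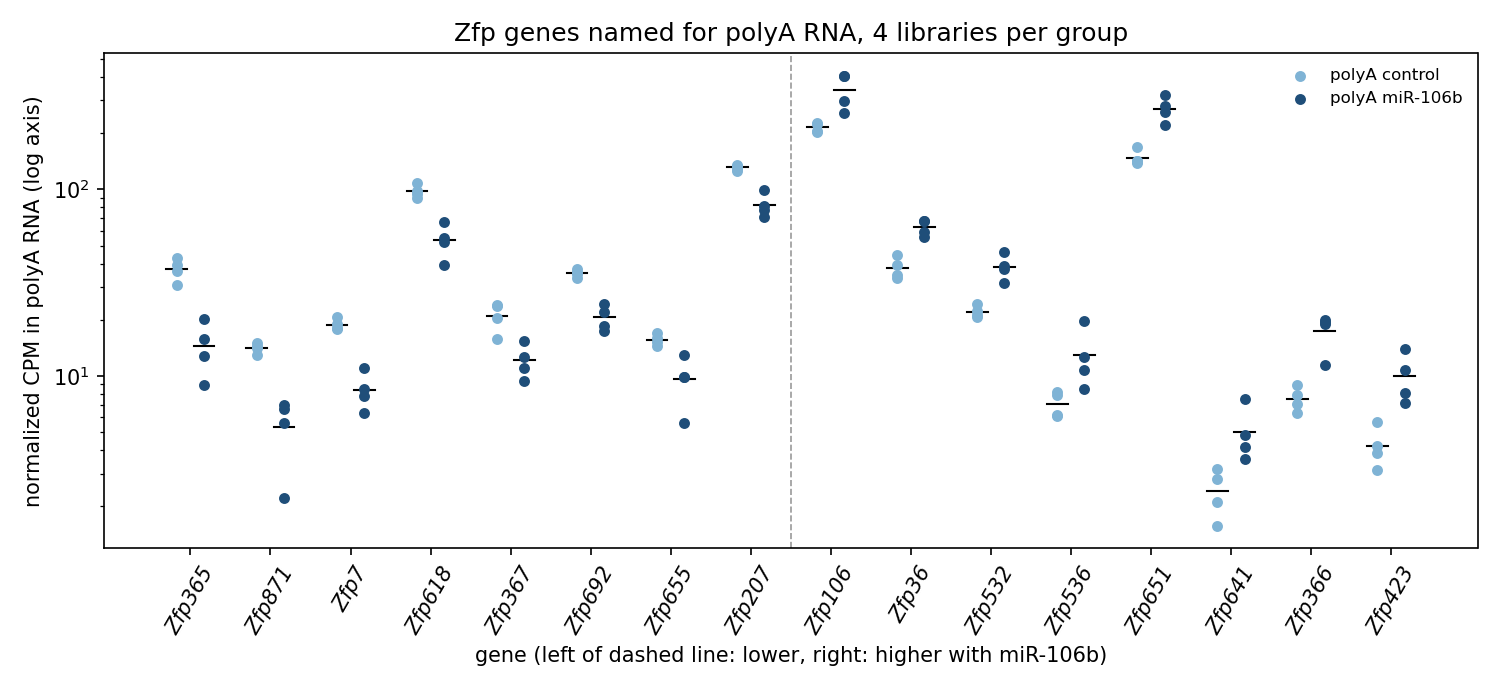
Normalized CPM (log axis) in the 4 control polyA and 4 miR-106b polyA libraries for the 8 largest rises and the 8 largest falls among the Zfp genes that passed the test with groups that do not overlap. Points are libraries and horizontal lines are means. Zfp423 goes from a mean of 4.22 to 9.98 and Zfp365 from 37.3 to 14.4.

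Markers of other cells changed in polyA RNA as well, and their part in the changes of the Zfp genes was not tested. In the same test 9 of the 9 cardiac markers tested rose, with a median log2 change of 1.23, as did 6 of 6 endothelial, 5 of 5 leukocyte and 4 of 5 red cell markers, while of 8 JG and mural markers 5 rose and 1 fell and the only tubule marker tested, Cdh16, had a log2 change of 0.02 (adjusted p = 0.957). Without miR-106b polyA replicates 2 and 4, the libraries highest in cardiac markers, 9 Zfp genes rose and 9 fell, where 1641 of all 14897 genes rose and 1463 fell. Of the 47 calls 16 were kept, and 0 of the 47 genes changed sign. Among the calls lost were those of Zfp423 (adjusted p = 0.0522), Zfp641, Zfp536, Zfp367 and Zfp655, at log2 changes of 0.90, 0.74, 0.49, -0.74 and -0.42. The cardiac sums of the 2 polyA groups do not overlap, so the marker level and the transfection cannot be told apart: with the log2 of the sum as a covariate 0 of all 14897 genes passed the edgeR test, 0 of the 151 among them (14 of the 151 at an unadjusted p under 0.05). The log2 change then had the other sign in 12 of the 47 genes, among them Zfp641, Zfp536 and Zfp106. It was 0.13 for Zfp423, 0.26 for Zfp366, -1.01 for Zfp692 and -0.92 for Zfp7. Both settings were chosen after seeing the data. Fewer Zfp genes fell without control polyA replicate 1 (11), 2 (10) or 3 (13), and fewer of all genes tested as well (1834, 1640 and 1707).

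The second comparison asks which transcripts became more or less bound to Ago2 after transfection. No Zfp gene passed the edgeR test in Ago2-IP RNA, nor did any other gene (0.00% of 14897). At an unadjusted p under 0.05 there were 8 of the 151 (5.30%), where 5.54% of all genes tested (826) had such a p. With DESeq2 0 of the 151 passed, of 2 genes in all, and with edgeR's likelihood ratio test 0 of the 151, of 15 genes higher and 3 lower in all. The median log2 change was 0.00 for the 151 and for all genes tested, 75 genes were above 0 and 76 below, and the range ran from -0.82 for Zfp688 to 1.17 for Zfp488. Without control Ago2-IP replicate 4 the count at an unadjusted p under 0.05 was 15 of the 151, where it was 1142 of all genes tested, and 5 genes in all were higher and 3 lower. Without miR-106b Ago2-IP replicate 4, 36 genes in all were higher and 4 lower, and without replicate 1 of that group 0 and 4, none of them among the 151. A p that misses the threshold does not show that levels were equal.

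The 3 genes with the smallest p in each direction are given as values, the 4 control libraries before the 4 with miR-106b. Zfp263, a DNA-binding regulator, had 13.4, 10.1, 12.9 and 9.85 normalized CPM in control Ago2-IP RNA and 17.1, 16.4, 20.4 and 14.0 in miR-106b Ago2-IP RNA, with a log2 change of 0.55 ± 0.18 (adjusted p = 0.639). Zfp516, an activator of the brown fat gene Ucp1, had 43.1, 43.4, 45.3 and 60.9 and 55.9, 66.7, 63.7 and 52.2, with 0.30 ± 0.10 (adjusted p = 0.64). For Zfp516 the groups overlapped through control replicate 4, and for Zfp263 they did not. Zfp251 had 26.0, 27.7, 20.2 and 23.4 and 26.8, 26.9, 36.5 and 28.6, with 0.29 ± 0.14 (adjusted p = 0.876). In the other direction Zfp414 had 18.5, 19.3, 14.3 and 19.3 and 14.0, 11.4, 9.37 and 11.4, with -0.64 ± 0.18 (adjusted p = 0.582). Its groups were separate by a narrow margin. Zfp688, a KRAB protein, had 7.42, 7.56, 5.93 and 7.22 and 2.72, 6.14, 3.88 and 2.92, with -0.82 ± 0.31 (adjusted p = 0.725). Zfp397 had 8.27, 10.4, 8.89 and 8.10 and 6.60, 8.19, 3.88 and 4.67, with -0.60 ± 0.27 (adjusted p = 0.842). In both, as in Zfp251, the groups overlapped. Of the genes that changed in polyA RNA, the 21 that rose had a median Ago2-IP change of -0.01 and the 26 that fell had 0.09.

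The Ago2-IP libraries also differed among themselves in Gm10800, a gene model of repeat-rich sequence, with 1522, 225, 1647 and 11168 CPM in the control libraries and 10645, 15036, 7705 and 1482 CPM in the miR-106b libraries. In polyA RNA Gm10800 had 2616, 2442, 2475 and 3403 CPM in the control libraries and 646, 2404, 7293 and 5633 CPM in the miR-106b libraries. With its level as a covariate, chosen after seeing the data, the count of Zfp genes called in Ago2-IP RNA was again 0 in both directions. The count was 0 without the covariate, so this says nothing of the part of Gm10800, which was not tested.

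The third comparison reads the change of the ratio of Ago2-bound to polyA RNA with miR-106b, which the study used as its measure of association with RISC. The ratio rose for 10 of the 151 genes (6.62%) and fell for 24 (15.9%), where it rose for 7.61% and fell for 19.7% of all genes tested. The median was -0.15 for the 151 and -0.07 for all genes tested. The balance among the Zfp genes turned with the scaling: 20 genes rose and 12 fell when libraries were scaled by their totals, and 18 rose and 12 fell with TMM within each RNA kind, which moved the median of all genes tested from -0.07 to 0.10 and 0.08. Of all genes tested 2002 rose and 2304 fell by totals and 1938 and 2364 with TMM within each kind, so that the balance of all genes did not turn. This comparison shares its libraries with the others, so its calls are no separate evidence for the genes that changed in polyA RNA. All 9 cardiac and all 6 endothelial markers tested had a ratio that fell, as did 6 of 8 JG and mural, 3 of 5 leukocyte and 4 of 5 red cell markers, and their part in the result was not tested.

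Zfp7 had the largest rise of the ratio. On the scale of all 16 libraries it had 15.9, 18.2, 15.9 and 16.6 normalized CPM in control polyA RNA, 7.62, 8.32, 10.6 and 6.004 in miR-106b polyA RNA, 0.312, 1.85, 2.06 and 2.12 in control Ago2-IP RNA and 2.89, 3.42, 4.19 and 2.88 in miR-106b Ago2-IP RNA. PolyA RNA was thus lower with miR-106b in all libraries and Ago2-IP RNA higher in all, the lowest from a single count in control Ago2-IP replicate 1. The log2 change of the ratio was 2.06 ± 0.42 (adjusted p = 0.000747). Zfp365 had 34.9, 37.6, 32.4 and 26.9 in control polyA RNA, 15.2, 12.5, 19.3 and 8.48 in miR-106b polyA RNA, 3.43, 3.70, 3.54 and 1.42 in control Ago2-IP RNA and 5.78, 4.35, 4.54 and 1.92 in miR-106b Ago2-IP RNA. Here the polyA groups were apart and the Ago2-IP groups overlapped, with a change of 1.70 ± 0.43 (adjusted p = 0.0044). Zfp263 had 17.6, 16.6, 21.5 and 23.7 in control polyA RNA, 14.2, 17.9, 16.1 and 15.2 in miR-106b polyA RNA, 14.6, 11.1, 14.2 and 10.6 in control Ago2-IP RNA and 18.2, 17.4, 22.0 and 15.4 in miR-106b Ago2-IP RNA. Its ratio rose by 0.85 ± 0.24 (adjusted p = 0.00991). For Zfp871 the change was 1.25 ± 0.38 (adjusted p = 0.0164) and the adjusted p was 0.0542 without miR-106b Ago2-IP replicate 2. The rises of Zfp618 (1.51), Zfp334 (0.76), Zfp367 (0.70) and Zfp692 (0.68) had adjusted p values of 0.0409, 0.0367, 0.0402 and 0.0422. Each of these 4 lost its call without any of 9 to 12 of the 16 libraries, Zfp618 also with no filter on low counts and with a replicate block, and Zfp367 also with the block. The adjusted p was highest at 0.112 for Zfp618 without miR-106b Ago2-IP replicate 2, 0.0864 for Zfp334 without control Ago2-IP replicate 4, 0.0910 for Zfp367 without control polyA replicate 2 and 0.0926 for Zfp692 without control Ago2-IP replicate 2.

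Zfp366 had the largest fall of the ratio, 1.504 ± 0.25 on the log2 scale (adjusted p = 6.8e-05). It had 6.99, 6.20, 5.60 and 7.84 normalized CPM in control polyA RNA, 11.1, 19.0, 19.0 and 18.01 in miR-106b polyA RNA, 38.6, 34.3, 29.8 and 33.3 in control Ago2-IP RNA and 26.8, 25.8, 36.7 and 30.8 in miR-106b Ago2-IP RNA. Zfp423 fell by 1.43 ± 0.32 (adjusted p = 0.00171), Zfp651 by 1.06 ± 0.14 (adjusted p = 1.86e-05), Zfp532 by 0.95 ± 0.17 (adjusted p = 0.000176) and Zfp691 by 1.01 ± 0.27 (adjusted p = 0.00648). Each of these genes had passed the test in polyA RNA and none in Ago2-IP RNA, from the same libraries. Zfp637 differed: it had 16.2, 20.9, 15.9 and 17.997 in control polyA RNA, 44.0, 21.3, 14.8 and 36.4 in miR-106b polyA RNA, 24.3, 18.2, 18.9 and 16.1 in control Ago2-IP RNA and 17.3, 13.7, 18.2 and 11.9 in miR-106b Ago2-IP RNA, with a wide spread in miR-106b polyA RNA, and its polyA change of 0.58 ± 0.27 had not passed (adjusted p = 0.105). Its ratio changed by -1.06 ± 0.36 (adjusted p = 0.0347), that of Zfp13 by -1.21 ± 0.44 (adjusted p = 0.0454) and that of Zfp536 by -0.87 ± 0.31 (adjusted p = 0.0406). These 3 calls were lost when libraries were scaled by their totals (adjusted p = 0.0650 for Zfp637, 0.0835 for Zfp13 and 0.0904 for Zfp536) and with TMM within each RNA kind (0.0664, 0.0770 and 0.0847), and those of Zfp13 and Zfp536 also with the size factors of DESeq2, with no filter on low counts and with a replicate block, and that of Zfp13 with the likelihood ratio test. They were lost as well without any of 9 or 10 of the 16 libraries, with the highest adjusted p at 0.0779 for Zfp637 without control Ago2-IP replicate 1, 0.241 for Zfp13 without miR-106b polyA replicate 2 and 0.13 for Zfp536 without miR-106b polyA replicate 4. In the RNA and ribosome list the ratio fell for Zfp36 (-0.87, adjusted p = 0.000172), Zfp106 (-0.86, adjusted p = 0.000321) and Zfp385a (-0.59, adjusted p = 0.000838). It also fell for Zfp467 (-0.69, adjusted p = 0.0439), Zfp91 (-0.36, adjusted p = 0.0413) and Zfp219 (-0.39, adjusted p = 0.0315) of the other role lists, and it rose for Zfp207 (0.67, adjusted p = 0.00143). Without miR-106b polyA replicates 2 and 4, chosen after seeing the data, 6 genes rose and 15 fell, where 715 of all genes tested rose and 2053 fell. The calls of Zfp691 and Zfp871 were then lost, with log2 changes of -0.77 and 0.99 and adjusted p values of 0.0664 and 0.0573. Those of Zfp637, Zfp618, Zfp334 and Zfp367 were lost at log2 changes of -1.05, 1.35, 0.62 and 0.70. Those of Zfp13 and Zfp536 were lost at -0.75 and -0.46. The changes with all libraries are given above, and a lost call with a change about as large does not show dependence on the 2 libraries. The count of rises was also 6 without any of control polyA replicates 1, 2 and 3, miR-106b polyA replicate 4 and control Ago2-IP replicate 2, and 16 without miR-106b polyA replicate 3, where 938, 802, 836, 858, 947 and 1536 of all genes tested rose, against 1134 with all libraries.

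The fourth comparison sets Ago2-bound against polyA RNA in the control transfection, that is, which Zfp transcripts are over- or under-represented with Ago2 without added miR-106b. The log2 values spread more widely here than in the other comparisons, from -3.64 for Zfp618 to 2.35 for Zfp366. Of the 151 genes 32 were higher in Ago2-IP (21.2%) and 53 lower (35.1%), where 35.1% of all genes tested were higher and 34.6% lower. The median log2 difference was -0.13 for the 151 and -0.03 for all genes tested. Scaling by library totals gave 22 higher and 87 lower, and TMM within each RNA kind 23 and 85, where of all genes tested 4145 were higher and 6784 lower and 4176 were higher and 6728 lower, with medians of -0.35 and -0.34, so directions are read relative to the median of all genes. Cardiac (9 of 9), endothelial (6 of 6), leukocyte (5 of 5) and red cell (5 of 5) markers were all higher in Ago2-IP, 6 of 8 JG and mural markers were higher and 2 lower, and Cdh16 of the tubule was lower by 5.47 on the log2 scale. Their part in the result was not tested, and neither was unspecific binding, for which the series holds no control.

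Values are given for the control polyA libraries first and the control Ago2-IP libraries second. Among the genes higher in Ago2-IP, Zfp366 led with a log2 difference of 2.35 ± 0.17 (adjusted p = 2.37e-11). Zfp13, a KRAB protein, had 1.26, 1.67, 2 and 2.77 normalized CPM in control polyA RNA and 13.4, 8.02, 9.44 and 7.08 in control Ago2-IP RNA, a difference of 2.30 ± 0.31 (adjusted p = 5.78e-07). Zfp641 had 2.79, 1.39, 1.87 and 2.46 and 11.2, 8.64, 5.31 and 9.68, a difference of 2.05 ± 0.31 (adjusted p = 2.73e-06). Every Ago2-IP library was above every polyA library in these genes. Zfp13 and Zfp641 were under 5 normalized CPM in every control polyA library, so they reached the limit of the choice through other libraries. Zfp423 had 5.03, 2.77, 3.73 and 3.38 and 13.4, 16.7, 16.8 and 12.5, a difference of 1.998 ± 0.23, and the abundant Zfp651 had 122, 126, 125 and 149 and 398, 409, 393 and 383, a difference of 1.60 ± 0.10. Zfp106 had 201, 181, 181 and 196 and 559, 593, 539.8 and 535, a difference of 1.55 ± 0.12. The adjusted p values of the last 3 were 3.71e-08, 2.68e-12 and 3.03e-11. Zfp691 (1.501 ± 0.19) and Zfp532 (1.45 ± 0.12) complete the 8 largest. This comparison shares the control polyA libraries with that of polyA RNA. All 21 genes that rose in polyA RNA with miR-106b were higher in control Ago2-IP RNA here. Of the 26 that fell, 20 were lower here and 0 were higher. The 2 sets of calls are not separate, the same count was not made for all genes, and the cause of the match was not tested.

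The genes lower in Ago2-IP held the widest differences of the comparison. The choice of the genes used the mean over polyA and Ago2-IP libraries together, so a gene could enter through 1 kind of RNA alone. Zfp57 did so, with 24.8 CPM in control polyA RNA and 2.44 in control Ago2-IP RNA, as did Zfp365, with 37.5 and 2.76. For such genes the test draws on values that chose them, and the difference is a description. Zfp618 had 83.6, 86.9, 96.4 and 78.8 normalized CPM in control polyA RNA and 3.43, 2.47, 8.85 and 11.8 in control Ago2-IP RNA, a log2 difference of -3.64 ± 0.35 (adjusted p = 2.97e-07). Zfp503 had 157, 176, 183 and 181 and 15.6, 10.8, 22.4 and 26.4, a difference of -3.19 ± 0.41 (adjusted p = 1.22e-05). The lowest polyA library of each was far above the highest Ago2-IP library. Zfp365 differed by -3.48 ± 0.27 (adjusted p = 5.91e-11) and Zfp7 by -3.34 ± 0.28 (adjusted p = 1.81e-10), from the values given for the ratio. Zfp57 had 19.8, 24.8, 19.5 and 23.1 and 2.81, 1.85, 2.95 and 3.07, a difference of -3.01 ± 0.28 (adjusted p = 1.08e-09). Zfp462 had 82.5, 79.0, 87.3 and 69.1 and 15.0, 18.2, 16.8 and 27.4, a difference of -2.02 ± 0.19 (adjusted p = 4.64e-09). These groups were also apart, as were those of Zfp334, a KRAB protein, with 22.6, 23.4, 22.1 and 20.2 and 9.66, 6.48, 11.2 and 6.61, and of Zfp451, a SUMO ligase, with 20.7, 25.3, 23.2 and 21.2 and 8.41, 8.33, 9.14 and 9.21. The differences of the last pair were -1.39 ± 0.18 (adjusted p = 3.1e-07) and -1.36 ± 0.20 (adjusted p = 2.24e-06).

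Of all genes tested 35.1% were higher and 34.6% lower, the background for the counts by role. By role, 3 of the 7 mesenchymal and developmental genes were higher in control Ago2-IP RNA (Zfp423, Zfp536 and Zfp467) and 3 lower (Zfp503, Zfp462 and Zfp703). In the RNA and ribosome list 4 of 10 were higher (Zfp385a, Zfp346, Zfp106 and Zfp36) and 4 lower (Zfp326, Zfp638, Zfp598 and Zfp622). Of the 5 imprinting and retroelement genes tested Zfp568 was higher (0.45 ± 0.14, adjusted p = 0.00806) and Zfp57 lower. In the cell cycle list Zfp207 and Zfp365 were lower and none was higher, and of the GC-box and broad regulators Zfp91 (0.48, adjusted p = 4.82e-05) and Zfp219 (0.63, adjusted p = 2.27e-06) were higher and none was lower.

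**Figure D3:**
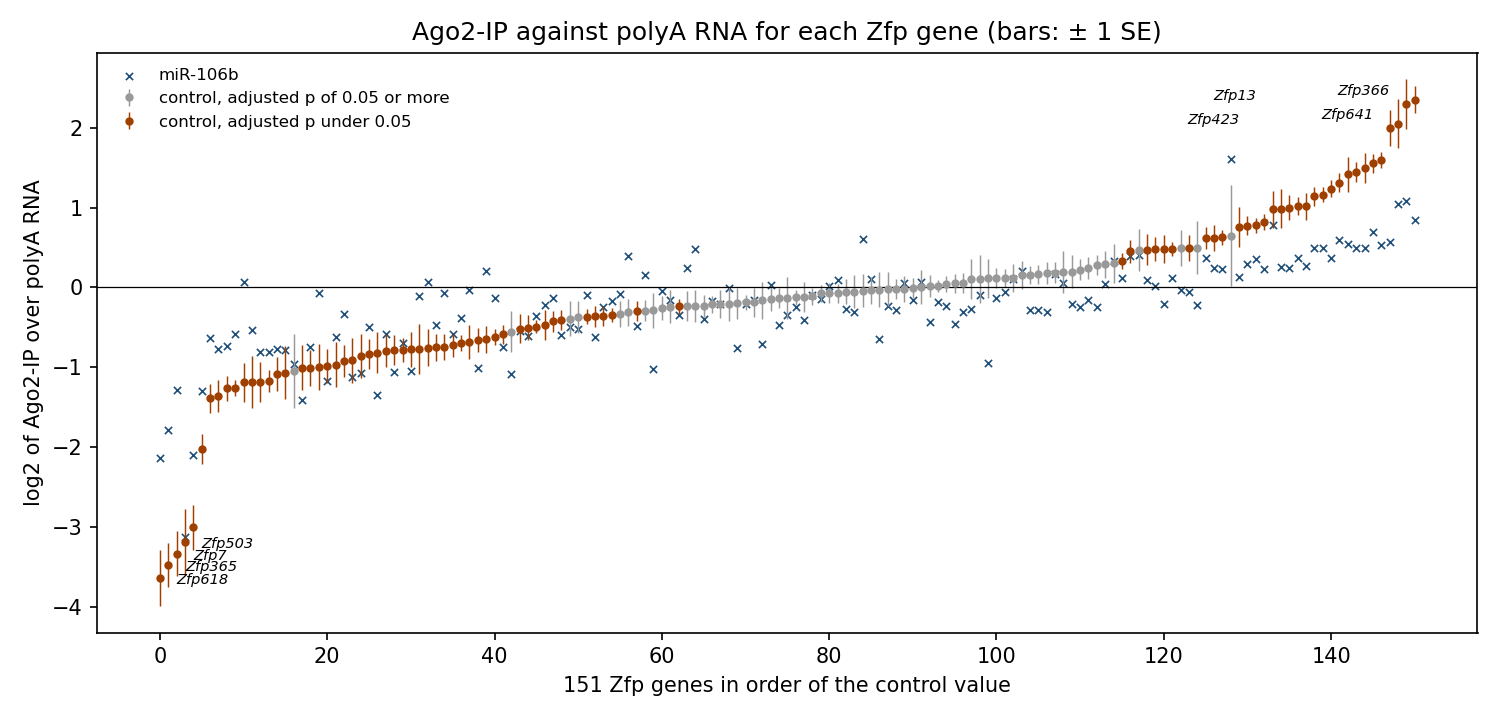
Log2 of Ago2-IP over polyA RNA (vertical axis) for the 151 Zfp genes in the order of the value in the control transfection (horizontal axis). Dots with bars of 1 SE are control values, coloured where the adjusted p is under 0.05, and crosses are miR-106b values; the control values run from -3.64 for Zfp618 to 2.35 for Zfp366.

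With miR-106b the same comparison gave 19 genes higher in Ago2-IP (12.6%) and 48 lower (31.8%), where 21.9% of all genes tested were higher and 24.5% lower. The median was -0.18 for the 151 and -0.04 for all genes tested, and scaling by library totals gave 10 higher and 70 lower (TMM within each RNA kind 9 and 70), where of all genes tested 2492 were higher and 4827 lower and 2406 were higher and 4919 lower, with medians of -0.19 and -0.20. The quartiles over all genes tested were -0.78 and 0.99 in control and -0.51 and 0.51 with miR-106b. Differences were mostly smaller among the genes named for control, which can follow from their choice as the largest there. They were 0.85 ± 0.17 for Zfp366 (adjusted p = 0.00034), 1.09 ± 0.31 for Zfp13 (adjusted p = 0.00667) and 1.05 ± 0.31 for Zfp641 (adjusted p = 0.00735). Zfp106 had 0.70 ± 0.12 (adjusted p = 4.06e-05), Zfp651 0.54 ± 0.10 (adjusted p = 0.000115) and Zfp532 0.49 ± 0.12 (adjusted p = 0.00194). Zfp423 had 0.57 ± 0.23 (adjusted p = 0.0431) and Zfp691 0.49 ± 0.19 (adjusted p = 0.0398). The call of Zfp423 was lost without miR-106b polyA replicate 1, 3 or 4, miR-106b Ago2-IP replicate 1 or 3 or control polyA replicate 3, with adjusted p values of 0.119, 0.135, 0.05003, 0.136, 0.0679 and 0.0504. That of Zfp691 was lost without miR-106b polyA replicate 1 or miR-106b Ago2-IP replicate 2, 3 or 4, with adjusted p values of 0.146, 0.0713, 0.0924 and 0.138. Both calls were also lost when libraries were scaled by their totals (adjusted p = 0.118 for Zfp423 and 0.15 for Zfp691) and with TMM within each RNA kind (0.136 and 0.162), and that of Zfp423 with no filter on low counts (0.0900) and with a replicate block (0.0729). The difference between the transfections is what the ratio tests. On the lower side Zfp503 kept its distance at -3.13 ± 0.41 (adjusted p = 5.58e-05). Zfp618 had -2.13 ± 0.35 (adjusted p = 0.000181), Zfp57 -2.103 ± 0.29 (adjusted p = 6.55e-06) and Zfp365 -1.78 ± 0.29 (adjusted p = 3.47e-05). Zfp462 had -1.30 ± 0.20, Zfp7 -1.28 ± 0.28, Zfp451 -0.77 ± 0.21 and Zfp334 -0.63 ± 0.19, the last with an adjusted p of 0.0102 that was 0.0567 without miR-106b polyA replicate 1. Without that library 12 of the 151 genes were higher, and 2771 of all genes tested against 3267 with it. Markers moved here as well, with 9 of 9 cardiac, 5 of 6 endothelial, 4 of 5 leukocyte and 4 of 5 red cell markers higher in Ago2-IP, and their part in the result was not tested.

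Proteins with and without a KRAB box were set side by side, beside all genes tested (19.0% rising and 21.5% falling in polyA RNA). In polyA RNA 4 of the 39 KRAB genes rose and 6 fell with miR-106b, with a median log2 change of -0.07, and 17 of the other 112 rose and 20 fell, with the same median of -0.07. In Ago2-IP against polyA RNA of the control transfection 6 KRAB genes were higher and 18 lower (46.15%), with a median of -0.36, and 26 of the others were higher and 35 lower (31.25%), with a median of -0.07, where 35.1% of all genes were higher and 34.6% lower. For the ratio 3 KRAB genes rose and 2 fell, against 7 and 22 of the others and 7.61% and 19.7% of all genes. By length of the finger array, 3 of the 41 genes with up to 4 fingers rose in polyA RNA and 8 fell, 6 of the 50 with 5 to 9 rose and 6 fell, and 12 of the 60 with at least 10 rose and 12 fell. With the narrow KRAB pattern the picture differed: in polyA RNA 3 of 22 genes rose and 5 fell, with a median of 0.06 (-0.09 for the other 129), and in Ago2-IP against polyA RNA of control 5 were higher (22.73%; 20.93% of the others) and 9 lower (40.91%; 34.11%). The differences between these classes were not tested.

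The partners of KRAB proteins in repression were taken as a list of 38 corepressor genes that are not named Zfp. Of the 38, all tested, 1 rose and 18 fell in polyA RNA with miR-106b, with a median log2 change of -0.43, where 19.0% of all genes tested rose and 21.5% fell. Trim28, the scaffold that KRAB boxes bind, had 319, 336, 327 and 294 normalized CPM in control polyA RNA and 284, 182, 230.2 and 217 in miR-106b polyA RNA, with no overlap, and fell by 0.48 ± 0.13 on the log2 scale (adjusted p = 0.012). Setdb1, its H3K9 methyltransferase, had 57.9, 60.8, 64.8 and 59.5 in control and 43.5, 37.5, 40.6 and 34.9 with miR-106b and fell by 0.63 ± 0.11 (adjusted p = 0.00103). Uhrf1, which recruits Dnmt1 to replicated DNA, had the largest fall of the list, from 119, 139, 118 and 88.5 to 19.5, 45.2, 55.5 and 20.4, by 1.72 ± 0.32 (adjusted p = 0.00225). Every miR-106b library of these genes was below every control. Dnmt1, the maintenance DNA methyltransferase, had 264, 289.6, 271 and 232 in control and 90.0, 137, 156 and 101 with miR-106b and fell by 1.13 ± 0.16 (adjusted p = 0.000683). The heterochromatin proteins Cbx5 and Cbx3 fell by 0.69 ± 0.16 (adjusted p = 0.00415) and 0.58 ± 0.17 (adjusted p = 0.0149), and Cbx1 had a change of -0.26 ± 0.14 (adjusted p = 0.151). The only rise was that of the de novo methyltransferase Dnmt3a, from 80.2, 74.0, 70.5 and 88.2 to 109, 114, 105 and 131, by 0.56 ± 0.11 (adjusted p = 0.00227). In Ago2-IP RNA 0 of 38 changed, among the genes named here the ratio rose for Uhrf1, Dnmt1 and Cbx5 and fell for Dnmt3a, and in Ago2-IP against polyA RNA 2 were higher and 28 lower in the control transfection (35.1% and 34.6% of all genes tested) and 1 was higher and 22 lower with miR-106b (21.9% and 24.5% of all). The marker lists moved in the same polyA test, with 9 of 9 cardiac markers rising, and their part in the result was not tested.

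Position was not used in the choice of the genes. Chromosome 7 held 39 of the 151 (86 of the 334 Zfp genes), followed by chromosome 6 with 12 and chromosomes 5, 8 and 15 with 10 each. Of the 39 on chromosome 7, 8 rose and 1 fell in polyA RNA, where 19.0% of all genes tested rose and 21.5% fell. In Ago2-IP against polyA RNA of the control transfection 13 were higher and 5 lower, where 35.1% of all genes were higher and 34.6% lower. With neighbours at most 500 kb apart, 41 of the 151 lay in 8 clusters of at least 3. The cluster at chr7:29768551-30169727, which holds 15 Zfp genes, had 7 of the 151 (Zfp84, Zfp30, Zfp790, Zfp27, Zfp568, Zfp260 and Zfp146), 5 of them with a KRAB box. Of these 3 were higher in control Ago2-IP RNA and none lower, with a median of 0.45. The cluster at chr6:47835660-48623227 also had 7 (Zfp398, Zfp282, Zfp212, Zfp777, Zfp746, Zfp467 and Zfp775), of which 2 were higher and 3 lower, with a median of -0.33. Another cluster of 7 genes, at chr7:127233060-127885996, had 2 higher and 1 lower and a median of 0.16. The 6 genes at chr7:4915216-5053722 had a median of -0.01, the 4 at chr7:12478292-12984340 a median of 0.03 and the 4 at chr7:24081923-24515682 a median of -0.43. Both clusters of chromosome 15 were low: Zfp41, Zfp623 and Zfp707 at chr15:75616678-75975868 had a median of -0.86 and Zfp251, Zfp7 and Zfp647 at chr15:76852147-76918010 a median of -1.01, each with 2 of 3 lower.

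The seed of miR-106b-5p was looked for in the transcripts because it is the part of the microRNA that pairs with targets. The mature sequence, from RefSeq on GRCm38.p6 at chr5:138165787-138165807 of the minus strand, is shown with the seed, bases 2 to 8, in capitals.
mmu-miR-106b-5p: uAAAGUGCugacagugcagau
The matching site GCACTTT, read on the transcript strand only, occurred in the 3'UTR of 26 of the 151 genes (17.22%) and of 11.85% of all protein-coding genes with a 3'UTR, and in the coding sequence of 13 (8.61%; 8.04% of all). The 3'UTRs, as GENCODE annotates them, were also longer, with a median of 1683 bases for the 151 and 965 for all protein-coding genes. Of the 26 genes with a 3'UTR site 4 rose and 7 fell in polyA RNA, with a median log2 change of -0.14, and of the 125 without one 17 rose and 19 fell, with a median of -0.06. All 1954 genes tested with such a site had a median of -0.12, 17.76% of them rising and 25.33% falling. In Ago2-IP RNA none of the 26 passed the test, and their median was 0.07. Their ratio rose for 5 and fell for 5, with a median of 0.08, where it rose for 8.39% and fell for 19.14% of all genes tested with such a site. Of the 13 genes with a site in the coding sequence none rose and 4 fell in polyA RNA, with a median of -0.23, where of all 1248 genes tested with such a site 19.47% rose and 30.21% fell, with a median of -0.18. A match is a description and not a shown target.

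The 3'UTR sites of the genes named for polyA RNA are printed so that the pairing can be seen beside the direction, on GRCm38, from the transcript strand, with the site in capitals. Zfp651 and Zfp106 rose and the others fell. They lie at chr9:121769029-121769057 (plus strand), chr2:120507825-120507853 (minus), chr10:67886925-67886953 (minus), chr4:63137454-63137482 (plus), chr13:64135138-64135166 (minus) and chr13:64134990-64135018 (minus).
Zfp651: caataaacgaaGCACTTTattctgtacag
Zfp106: taaaataccagGCACTTTcaattattttg
Zfp365: atatcatggttGCACTTTtgctttgtcca
Zfp618: tttgacctcctGCACTTTgaagaaacgga
Zfp367, first site: gagagagaattGCACTTTttttttatatg
Zfp367, second site: tctcacaggaaGCACTTTgtgaataagac
Zfp532, which rose, also has a site, which is not printed. The GENCODE 3'UTR of Zfp871, which fell, has one outside the interval that the deposited table gives for the gene, and it is not printed either. The other 9 genes named for polyA RNA had no match in the 3'UTR.

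Reads were counted without regard to strand, so a gene cannot be told apart from one that overlaps it. Of the 151 genes 52 share exon bases with another gene, 46 of them with one on the other strand, and in 19 the shared part is over 10% of the exon bases. Among the genes with values given here it is 51.6% for Zfp524, 30.4% for Zfp414, 28.7% for Zfp532, 28.3% for Zfp335, 26.1% for Zfp106, 18.5% for Zfp142, 15.5% for Zfp775, 14.2% for Zfp7, 13.5% for Zfp703, 12.7% for Zfp219 and 10.9% for Zfp367. The highest shared part of the 151 is 94.8%, for Zfp784. With Zfp524 and Zfp865 (28.4%) Zfp784 lies in the cluster at chr7:4915216-5053722, and Zfp428 (17.7%) lies in that at chr7:24081923-24515682. Sequence shared with transcripts of any other gene, of the family or not, was less of a limit. Words of 50 bases, the read length, that also occur in another gene's transcripts were over 10% of the words in 7 of the 151 genes. The median share was 0.00%, and the highest was 45.0%, in Zfp524. Zfp414, at 26.3%, and Zfp7, at 14.1%, are among the 7. Zfp524, Zfp414 and Zfp7 also share exon bases with another gene, as given above, so their shared words are not separate from that overlap.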

How the data were processed

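The values are raw read counts per Ensembl gene as deposited by the authors, who sequenced single-end reads of 50 bases, removed ribosomal reads, aligned them to GRCm38 with TopHat2 and counted them with HTSeq without regard to strand. The members and all gene lists were chosen with earlier results of these data known. Tests were 2-sided edgeR quasi-likelihood F tests with robust dispersion and TMM scaling (R 4.3.3, edgeR 4.0.16, limma 3.58.1; DESeq2 1.42.0 as an alternative), fitted to all 14897 genes with at least 1 CPM in at least 3 of 4 replicates of a group. P-values were adjusted over all genes tested by Benjamini-Hochberg, with a threshold of 0.05. PolyA and Ago2-IP libraries were fitted apart for the miR-106b comparisons and together, with TMM over all 16 libraries, for the ratio and for Ago2-IP against polyA RNA. The SE is the absolute log2 change over the square root of F.

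Named genes were those with an adjusted p under 0.05 whose groups do not overlap (for the ratio, the adjusted p only), the 8 largest rises and the 8 largest falls. For Ago2-IP RNA they were the 3 with the smallest p in each direction, and for Ago2-IP against polyA RNA with miR-106b those named for control. The 8 highest in CPM per kb, the 3 genes on each side of 5 CPM and the members of the role lists were added, and other genes were singled out after their values were seen. Alternatives were other scalings, filters, tests and expression limits of the members, the replicate number as a block, and each library left out. Protein features came from GENCODE coding sequences, translated, and no protein sequence is shown. No library was left out.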

Additional observations from a re-analysis of the deposited data

Results flagged for a closer look

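Among 172 groups of 4 libraries examined, 12 held a library far from the other 3 of its group, where chance gives about 1 in 20. Among the cell marker lists, the summed level of the juxtaglomerular and mural list was 5162 CPM in control Ago2-IP replicate 4 (others 5430.0 to 5462), and that of the kidney tubule list was 250.5 CPM in control polyA replicate 4 (others 128.5 to 143.4).

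For the Zfp genes values are normalized CPM. In control polyA replicate 4, Zfp651 had 169.4 (others 138.6 to 142.4) and Zfp691 had 19.42 (others 11.85 to 13.01). In control Ago2-IP replicate 4, Zfp365 had 1.314 (others 3.138 to 3.359) and Zfp516 had 60.86 (others 43.07 to 45.25). In replicate 3 of the same group Zfp414 had 14.28 (others 18.54 to 19.31). Among the miR-106b polyA libraries, Zfp366 had 11.42 in replicate 1 (others 18.92 to 19.88), Zfp57 had 26.78 in replicate 3 (others 10.76 to 13.38), Zfp688 had 6.349 in replicate 3 (others 9.856 to 10.02) and Zfp598 had 94.96 in replicate 4 (others 106.0 to 107.4). Zfp367 had 14.63 in miR-106b Ago2-IP replicate 2 (others 13.9 to 14.0).

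The change with miR-106b differed between polyA and Ago2-IP RNA for 34 of the 151 genes (22.5%) by the test of the ratio, where it did for 27.3% of all genes tested. The difference between these shares was not tested.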

How the results depend on the processing

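With all 16 libraries in 1 fit 32 Zfp genes rose and 16 fell in polyA RNA with miR-106b, where 3829 of all 14897 genes rose and 2408 fell. With the cardiac marker level as a covariate, chosen after seeing the data, 0 rose and 0 fell, as among all 14897 genes. The level separates the 2 groups fully, so a lost call there says nothing of stability. The log2 change turned to -0.46 for Zfp641, -0.46 for Zfp536 and -0.22 for Zfp106, and 12 of the 47 genes changed sign. It was 0.13 for Zfp423, 0.26 for Zfp366, -1.01 for Zfp692 and -0.92 for Zfp7. Without miR-106b polyA replicates 2 and 4, also chosen after seeing the data, 9 rose and 9 fell in polyA RNA (1641 and 1463 of all genes), and the ratio rose for 6 and fell for 15 (715 and 2053 of all genes). Zfp423, Zfp641, Zfp536, Zfp367 and Zfp655 then had log2 changes of 0.90, 0.74, 0.49, -0.74 and -0.42 and adjusted p values of 0.0522, 0.202, 0.183, 0.0665 and 0.151, with 2 libraries in the miR-106b group. With libraries scaled by their totals the ratio rose for 20 and fell for 12, 87 genes were lower in Ago2-IP than in polyA RNA of the control transfection, and 10 were higher with miR-106b, where these counts were 2002, 2304, 6784 and 2492 for all genes. With TMM within each RNA kind they were 18, 12, 85 and 9 for the Zfp genes and 1938, 2364, 6728 and 2406 for all genes. With no filter on low counts the ratio fell for 13, and for 2178 of the 31502 genes then tested. With at least 10 counts required in every library some named genes were not tested and have no value. For the counts that these settings moved, the cause was not tested.

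Leaving out each library in turn gave 14 to 27 rises and 10 to 28 falls in polyA RNA, and a ratio that rose for 6 to 16 and fell for 16 to 31. Among all 14897 genes the ranges were 2255 to 3496 rises and 1640 to 3294 falls in polyA RNA, and 802 to 1536 rises and 2323 to 3272 falls of the ratio. In Ago2-IP against polyA RNA it gave 30 to 34 higher and 50 to 65 lower in control (4889 to 5322 and 4821 to 5716 of all genes), and 12 to 21 higher and 38 to 55 lower with miR-106b (2771 to 3322 and 3205 to 3764 of all genes). For Ago2-IP RNA every setting run left 0 of the 151 past the threshold, with 6 to 15 at an unadjusted p under 0.05 by edgeR and 4 by DESeq2. The 15 came without control Ago2-IP replicate 4, where 1142 of all genes had such a p. Of the alternatives for named genes that had passed, 97 lost the call for the ratio, 24 for polyA RNA (and 3 more that turned sign), 17 for Ago2-IP against polyA RNA with miR-106b and 0 for the same in control. Replicate numbers of different groups do not pair: the correlations of their residuals ran from -0.64 to 0.50.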
